A study of Mus musculus with 6 samples.

Results

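Toll-like receptors with their partner and adaptor genes were examined in tumor-associated macrophages (TAMs) sorted from melanomas that could or could not make prostaglandins through cyclooxygenases. The set held 10 genes, taken by name from the 39179 genes of the count table: the cell-surface receptors Tlr1, Tlr2 and Tlr4, the surface partners Cd14 and Ly96, the endosomal receptors Tlr7, Tlr8 and Tlr13, their transport partner Unc93b1 and the adaptor Myd88. In the first group (Ptgs-competent, called competent, 3 libraries), C57BL/6 mice 8 weeks of age carried wildtype tumor cells. In the second (Ptgs-deficient, called deficient, 3 libraries), mice of the same strain and age carried tumor cells in which Ptgs1 and Ptgs2 had been disrupted by CRISPR/Cas9. The tumor cells of both groups came from a BRAF-mutant melanoma line injected under the skin. The macrophages belonged to the host, so that their own Ptgs and Tlr genes were unedited in both groups. Each library was made from a pool of tumors, and p-values here measure the spread between such pools.

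Toll-like receptors bind molecules of microbes or of damaged cells. TLR1, TLR2 and TLR4 sit in the plasma membrane, where TLR1 pairs with TLR2 on bacterial lipoproteins and TLR4 binds lipopolysaccharide together with MD-2, the product of Ly96. CD14, which is anchored in the membrane by a lipid, hands lipopolysaccharide to that complex. TLR7, TLR8 and TLR13 bind RNA inside endosomes, TLR13 being a mouse receptor for bacterial ribosomal RNA, and they reach endosomes with the membrane protein UNC93B1. MYD88 carries the signal of all these receptors to NF-kappaB and to interferon regulatory factors, and also serves the IL-1 receptor family. Macrophages express many of these genes and use them to start inflammatory transcription.

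Libraries held 4431184 to 8760679 counts, read from the 3′ end of transcripts. Levels are therefore given as TMM-scaled CPM, that is, counts scaled to library size, a unit that holds no term for transcript length. Of the 8793 genes tested, 44.4% had 0 counts in at least 1 library, and so did 3 of the 9 tested genes of the set (Tlr1, Tlr4 and Tlr7). By counting error alone, a count of 0 allows up to 3 counts, or 0.357 to 0.647 CPM across libraries. Competent replicate 3 stood apart in the genes that define macrophages: the summed level of 9 such genes was 4166 CPM there and 10843 to 14762 CPM in the other 5 libraries. Cd68, a lysosomal macrophage protein, had 123 counts in that library and at least 2465 in each of the others. Competent replicate 2 held the fewest genes with a count (7794, against up to 10714). Without replicate 3 of the competent group, the log2 fold changes of Tlr7, Tlr13, Cd14 and Unc93b1 were 2.51, -1.32, 1.18 and 1.79. In that fit 4 genes of the set had an unadjusted p under 0.05 by edgeR, in place of 3. So did 863 of all 9741 genes tested there, in place of 776 of 8793.

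No gene of the set was called by the edgeR quasi-likelihood test, which required an adjusted p (FDR) of at most 0.05 and a log2 fold change of at least 1.5 in either direction and called 0.216% of all genes tested. At an unadjusted p under 0.05 stood 3 of the 9 tested genes (Unc93b1, Cd14 and Tlr13), where 8.83% of all genes tested did. Levels of both groups were free of overlap for 5 of the 9, against 19% of all genes. Of these 5, Cd14, Ly96, Tlr7 and Unc93b1 were higher in every deficient library than in any competent one (11% of all genes were), and Tlr13 was lower (8.01% were). The fitted log2 fold change was above 0 for 8 of the 9, with a median of 1.39, whereas 50.7% of all genes lay above 0 with a median of 0.018. In such bulk libraries, fewer cells of a type and less RNA per cell cannot be told apart.

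**Figure D1:**
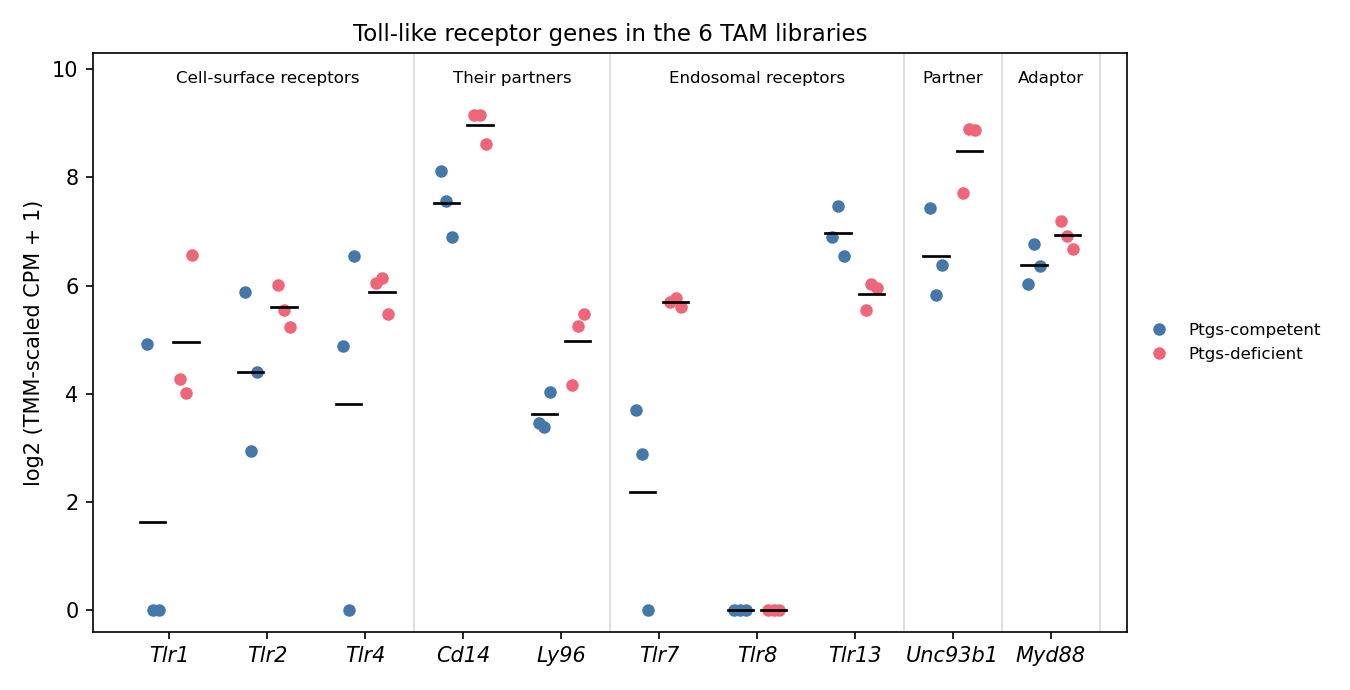
Level of each gene in each library, as log2 of TMM-scaled CPM plus 1 on the vertical axis. Points are the 3 libraries of each group, bars the mean of the log2 values, and Tlr7 separates the groups, Tlr13 separates them the other way, Tlr8 lies at 0 in all 6 libraries, and Tlr1 and Tlr4 spread widely among competent libraries.

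The cell-surface receptors were detected unevenly in the competent group. Tlr2 (ENSMUSG00000027995; GRCm38 chromosome 3, 83836272 to 83841767) was present in all 6 libraries. It was at 57.9, 6.73 and 20.05 CPM in competent replicates 1, 2 and 3 and at 63.5, 46.1 and 36.8 CPM in the deficient ones. The groups overlapped through competent replicate 1, and the log2 fold change of Tlr2 was 0.79 ± 1.04 (SE, edgeR FDR 0.9995). Without that replicate its log2 fold change was 1.87, and without competent replicate 2 it was 0.32.

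Tlr4 (ENSMUSG00000039005; chromosome 4, 66827584 to 66930284) is the receptor for lipopolysaccharide. It had 178, 0 and 431 counts among competent libraries and 356, 586 and 209 in the deficient ones. This came to 28.4, 0 and 92.9 CPM against 65.0, 69.8 and 43.2 CPM. The highest and the lowest of the 6 values of Tlr4 both lay in the competent group. Its log2 fold change was 0.55 ± 1.47 (SE, edgeR FDR 0.9995). Without competent replicate 2, where Tlr4 was at 0, the log2 fold change was -0.027. Without competent replicate 3 it was 2.09, so that these libraries set both its size and its sign.

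Tlr1 (ENSMUSG00000044827; chromosome 5, 64924679 to 64933563) had 183, 0 and 0 counts among competent libraries and 100, 128 and 451 in the deficient ones. A single competent library thus held all of that group's Tlr1 reads, at 29.2 CPM, a level above 2 of the 3 deficient libraries (18.2, 15.2 and 93.3 CPM). The log2 fold change was 2.12 ± 2.19 (SE, edgeR FDR 0.9995). It was 0.78 without deficient replicate 3, and without competent replicate 1 the competent group had no Tlr1 count left. Over the 8 alternatives that kept all 6 libraries, the log2 fold change of Tlr1 ranged from 2.10 to 7.43. Tlr1 and Tlr6 are close paralogs that lie side by side on chromosome 5, so that reads shared by both may have been split or lost.

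The surface partners were more regular. Cd14 (ENSMUSG00000051439; chromosome 18, 36725067 to 36726798) was the most abundant gene of the set in both groups by mean CPM. It was at 279, 187 and 118 CPM among competent libraries and at 568, 569 and 394 CPM in the deficient ones. Every deficient library was above every competent one, with means of 195 ± 80.6 and 510.4 ± 101 CPM (SD, n = 3 each). The log2 fold change of Cd14 was 1.39 ± 0.39 (SE) and its edgeR adjusted p was 0.241. The DESeq2 Wald test gave Cd14 an adjusted p of 0.0307, although its log2 fold change of 1.36 stayed below the threshold of 1.5. Over 14 alternatives the adjusted p of Cd14 ranged from 0.0307 to 0.709.

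Ly96 (ENSMUSG00000025779; chromosome 1, 16688051 to 16709611) had 63, 58 and 71 counts among competent libraries and 93, 314 and 211 in the deficient ones. Its levels were 10.04, 9.52 and 15.3 CPM against 17.0, 37.4 and 43.7 CPM, so that the nearest libraries of the groups, at 15.3 and 17.0 CPM, were close. Its log2 fold change was 1.49 ± 1.37 (SE, edgeR FDR 0.9995).

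The endosomal receptors gave 3 different patterns. Tlr7 (ENSMUSG00000044583; chromosome X, 167304929 to 167330558), a receptor for single-stranded RNA, had 75, 39 and 0 counts among competent libraries and 279, 450 and 231 in the deficient ones. Its level was 11.95, 6.40 and 0 CPM against 50.9, 53.6 and 47.8 CPM. The deficient libraries lay close together, all above the competent ones. Means were 6.12 ± 5.98 and 50.8 ± 2.90 CPM (SD, n = 3 each). The log2 fold change of 3.05 ± 1.66 (SE) was the highest of the set and did not pass the test (edgeR FDR 0.764). It ranged from 2.51 to 4.17 over the 14 alternatives, with adjusted p of 0.359 to 0.99.

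Tlr13 (ENSMUSG00000033777; chromosome X, 106143204 to 106160493) went the other way. It had 743, 1080 and 430 counts in the competent libraries, or 118, 177 and 92.7 CPM, and was the most abundant of the 6 receptors in replicates 1 and 2. In the deficient libraries it had 250, 542 and 294 counts, or 45.6, 64.5 and 60.8 CPM, and all 3 values were below the lowest competent one. Means were 129 ± 43.4 and 57.0 ± 10.03 CPM (SD, n = 3 each). For Tlr13 the fitted log2 fold change was -1.18 ± 0.51 (SE, edgeR FDR 0.522), and it stayed between -1.32 and -0.89 over all 14 alternatives without a call.

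Tlr8 (ENSMUSG00000040522; chromosome X, 167242696 to 167264329) had 0 counts in all 6 libraries and was not tested. By counting error alone, its 0 counts allow a level of at most 0.357 to 0.647 CPM, and no fold change was computed. Tlr7, Tlr8 and Tlr13 all lie on the X chromosome, Tlr7 and Tlr8 as neighbors. Xist, the transcript of the inactive X, had 547 to 2259 counts in each of the 6 libraries, and the Y-linked genes Ddx3y, Eif2s3y, Kdm5d and Uty had 0 in all of them. The median log2 fold change was 0.15 over 251 tested genes of the X chromosome and 0.014 over the 8493 placed elsewhere.

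The groups separated in the makeup of the endosomal transcripts but not in their sum. Summed over Tlr7, Tlr8 and Tlr13, the level was 130.4, 184 and 92.7 CPM among competent libraries and 96.5, 118 and 109 CPM in the deficient ones, and the groups overlapped. Tlr7 made up 9.17%, 3.49% and 0% of that sum in the competent libraries. In the deficient libraries it made up 52.7%, 45.4% and 44%. Tlr13 made up the rest in each library. These shares are a description of the same counts and were not tested.

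**Figure D2:**
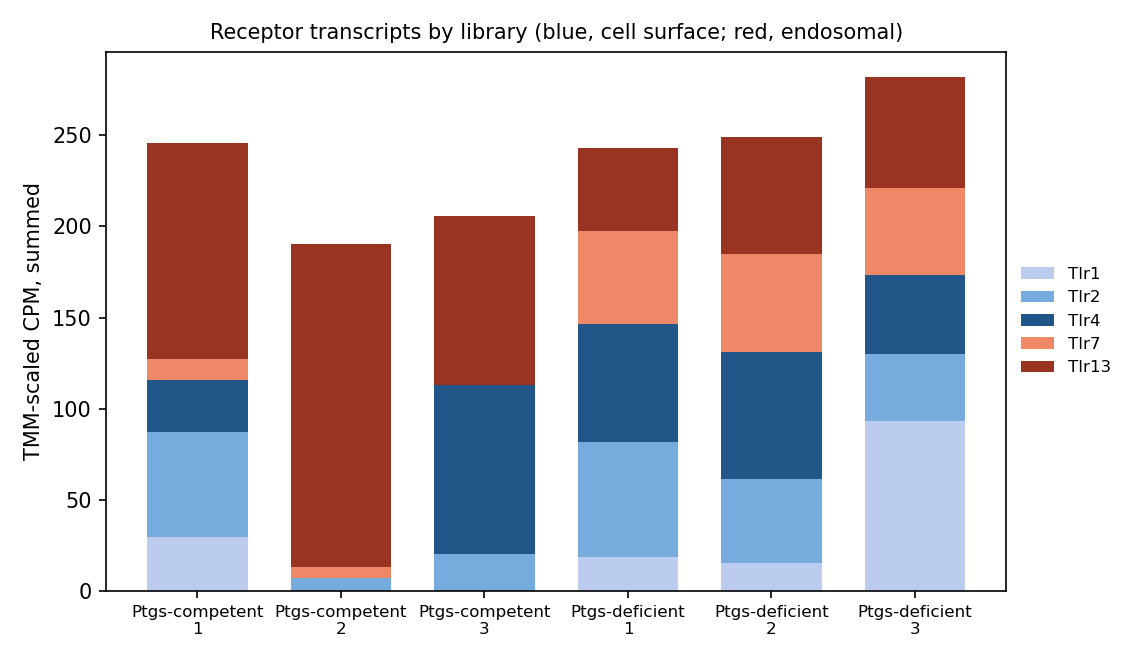
Stacked TMM-scaled CPM (vertical axis, from 0) of Tlr1, Tlr2 and Tlr4 in blue and of Tlr7 and Tlr13 in red, for each of the 6 libraries. Tlr13 fills most of the endosomal part in the competent libraries, while Tlr7 is 44% to 52.7% of it in the deficient ones, and the competent bars differ in which surface receptors they hold.

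The cell-surface sum separated the groups, while the endosomal share of all receptor transcripts did not. The summed level of Tlr1, Tlr2 and Tlr4 was 115, 6.73 and 113 CPM among competent libraries and 147, 131 and 173 CPM in the deficient ones, without overlap. Endosomal transcripts made up 53.0%, 96.5% and 45.1% of the 6 receptors in the competent libraries and 39.7%, 47.4% and 38.5% in the deficient ones, and these shares overlapped. Competent replicate 2, with 0 counts of Tlr1 and Tlr4, gave the highest share. The median log2 fold change was 0.79 for the 3 surface receptors, which ranged from 0.55 to 2.12. For the endosomal receptors the median of 0.93 is the midpoint of Tlr7 and Tlr13, which lay on either side of 0. The order of these medians was not stable: without competent replicate 3 they were 1.56 (surface) and 0.59 (endosomal), without competent replicate 1 they were 1.87 and 1.37, and without competent replicate 2 they were 0.32 and 1.09. No test of a difference between the classes was made, since they hold 3 and 2 tested genes.

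Sequence before the transcription start was read from RefSeq promoter windows (GRCm38.p6, 250 bases before to 50 after a start). Windows of 5 of the 10 genes were searched: Tlr1, Tlr2, Tlr8, Tlr13 and Myd88. No window was searched for Tlr4, Tlr7, Cd14, Ly96 or Unc93b1, which does not show that RefSeq lacks one for them. Shown are the endosomal receptor that was lower in every deficient library and the surface pair that was uneven among competent libraries, on the strand of the gene and only as far as the first start annotated in GENCODE M21. Capitals mark the letters GAGGAA, the core bound by the macrophage factor PU.1.
Tlr13, plus strand, chrX:106143025-106143203: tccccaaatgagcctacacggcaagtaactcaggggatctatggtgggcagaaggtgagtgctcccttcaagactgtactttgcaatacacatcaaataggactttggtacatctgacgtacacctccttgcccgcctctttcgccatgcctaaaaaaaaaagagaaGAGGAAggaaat
Tlr1, minus strand, chr5:64933564-64933808: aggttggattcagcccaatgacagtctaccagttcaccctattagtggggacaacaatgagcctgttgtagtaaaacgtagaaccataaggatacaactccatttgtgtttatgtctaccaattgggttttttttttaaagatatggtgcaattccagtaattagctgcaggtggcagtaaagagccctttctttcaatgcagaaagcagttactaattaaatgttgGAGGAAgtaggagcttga
Tlr2, minus strand, chr3:83841768-83841858: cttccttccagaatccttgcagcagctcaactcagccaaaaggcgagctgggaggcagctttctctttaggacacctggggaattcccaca

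The letters GAGGAA, searched on both strands, occurred in the windows of Tlr1, Tlr8 and Tlr13, and in 28.3% of all 32851 promoter windows of 300 bases. They lay 83 bases before the RefSeq start of Tlr13, 23 bases before that of Tlr1 and, on the other strand, 77 bases before that of Tlr8. The interferon-stimulated response element, searched as GAAANNGAAA, occurred in 3.44% of all windows and 40 bases before the RefSeq start in the Myd88 window. That window, at 119339969 to 119340268 on chromosome 9, lies inside the Myd88 gene as annotated in GENCODE M21, so that the letters are upstream of an internal start only. Neither TGANTCA, the AP-1 element (7.81% of windows), nor TGACGTCA, the cyclic AMP response element (1.79%), occurred in any window of these 5 genes. These are matches of letters and not binding sites.

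Unc93b1 (ENSMUSG00000036908; chromosome 19, 3935186 to 3949340) was at 172, 56.1 and 82.1 CPM among competent libraries and at 209, 474 and 467 CPM in the deficient ones. Deficient replicate 1 was nearer to the highest competent library than to the other libraries of its group, although no values overlapped. Means were 103 ± 60.7 and 383 ± 151 CPM (SD, n = 3 each). The log2 fold change of 1.89 ± 0.51 (SE) had the lowest adjusted p of the set, 0.218 by edgeR. The call depended on the tool and the filter. The DESeq2 Wald test (adjusted p 0.0261), limma voom with sample quality weights (0.0357) and edgeR without a filter on low counts (0.00848) called Unc93b1, and these settings also called 3.73%, 1.4% and 1.89% of all genes they tested. When any 1 library was left out (6 fits), its log2 fold change was 1.60 to 2.48 and no call was made. Over the 14 alternatives its adjusted p ranged from 0.00848 to 0.7003.

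Myd88 (ENSMUSG00000032508; chromosome 9, 119335934 to 119341411) was at 64.5, 108 and 81.05 CPM among competent libraries and at 146, 120.3 and 101 CPM in the deficient ones. The groups of Myd88 overlapped (log2 fold change 0.53 ± 0.47 SE, edgeR FDR 0.9995). Myd88 overlaps the first part of Acaa1a on the opposite strand, and the strand setting of the read counting is not given in the sources used here. The adaptor was detected in every library, at 84.5 ± 21.8 and 122 ± 22.5 CPM (SD, n = 3 each).

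Ordered by mean CPM, the competent group ran Cd14, Tlr13, Unc93b1 and Myd88, followed by Tlr4, Tlr2, Ly96, Tlr1 and Tlr7, all at 40.4 CPM or less. Each of these 4 was apart from the next by less than the larger SD of the pair. The deficient group ran Cd14, Unc93b1 and Myd88, followed by Tlr4, Tlr13, Tlr7, Tlr2, Tlr1 and Ly96, which lay between 32.7 and 59.3 CPM. The means of Cd14 and Unc93b1 were apart by more than the SD of Cd14 and by less than that of Unc93b1, and Unc93b1 and Myd88 were apart by more than either SD. Neighbors within the lower stretch were apart by less than the larger SD of the pair. Tlr13 stood above Myd88 in each competent library and below it in each deficient one. Its place above Unc93b1 in the competent group rested on replicate 2, without which the means were 106 CPM for Tlr13 and 127 CPM for Unc93b1.

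**Figure D3:**
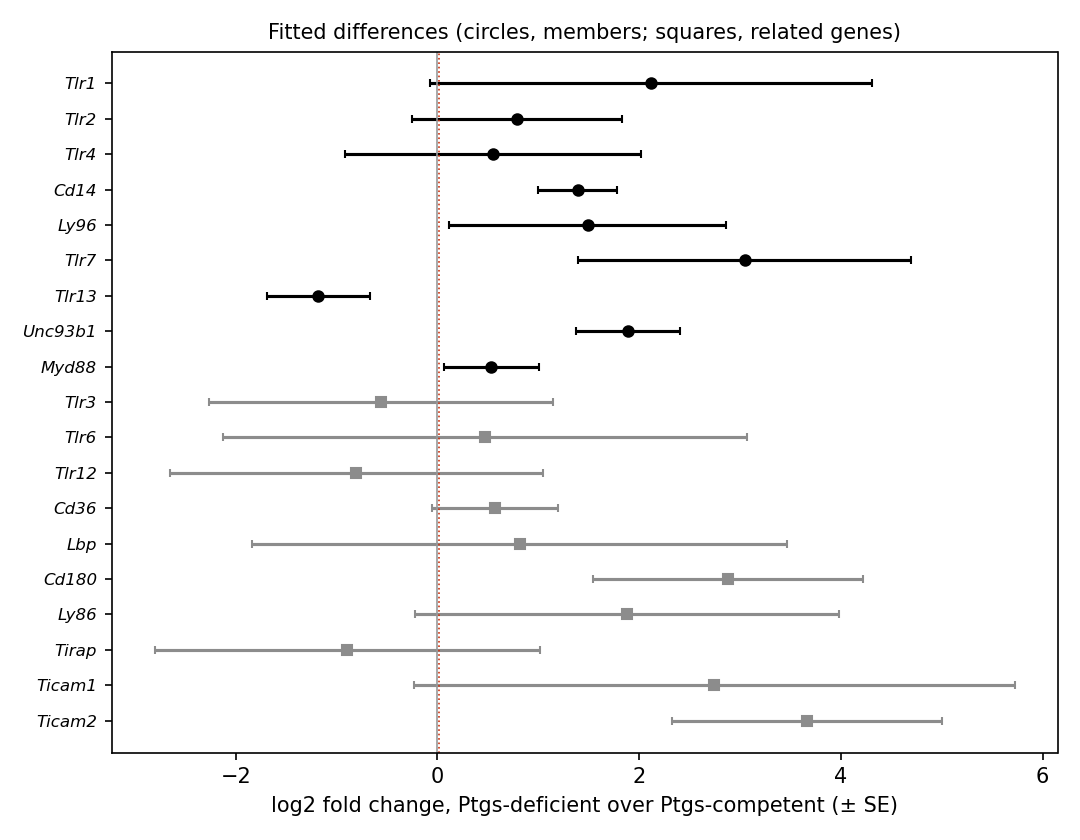
Fitted log2 fold change of deficient over competent libraries (horizontal axis) with its SE, for the 9 tested genes of the set (circles) and for tested genes of related function (squares), with a dotted line at the median of all genes, 0.018. Among the circles, Cd14, Unc93b1 and Tlr13 have the narrowest errors relative to their distance from 0, and none of the genes shown passed the FDR threshold.

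The other mouse Toll-like receptors were sparse. Tlr3, the endosomal receptor for double-stranded RNA, had 96, 212 and 220 counts among competent libraries and 245, 181 and 0 in the deficient ones, a log2 fold change of -0.56 ± 1.70 (SE). Tlr12 had 495, 46 and 64 counts against 172, 0 and 126, and Tlr6, which also pairs with TLR2, had 47, 0 and 13 against 0, 61 and 34. The edgeR adjusted p of Tlr3, Tlr6 and Tlr12 was 0.9995. Tlr5 was found in 1 library of each group (33 and 98 counts), Tlr11 in deficient replicate 1 alone (71 counts), and Tlr9, the DNA receptor, had 0 counts in all libraries. Tlr5, Tlr9 and Tlr11 were not tested.

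The rest of the pathway was read from 8 lists of 72 genes, chosen with earlier results of these data known. Of these genes 59 were tested, and none was called by edgeR. At an unadjusted p under 0.05 there were 12 higher in the deficient group, where 5% of all genes tested were, and 0 lower. The median log2 fold change of the 59 was 0.56, with 42 above 0, as were 50.7% of all genes. Levels of both groups were free of overlap for 17 of them, 16 higher (11% of all genes were) and 1 lower (8.01%).

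Among accessory proteins of the surface receptors, 0 of 4 tested genes reached an unadjusted p under 0.05 (8.83% of all genes did). Cd180, which encodes a TLR4-like surface receptor that restrains TLR4, was nearest. It had 197, 0 and 86 counts against 543, 770 and 863, and its log2 fold change was 2.89 ± 1.34 (SE, edgeR FDR 0.603). Its binding partner Ly86 had 1, 0 and 182 counts against 99, 1025 and 24, and Cd36, a scavenger receptor, had a log2 fold change of 0.57 ± 0.63 (SE). Among the other adaptors, 1 of 3 tested genes reached an unadjusted p under 0.05, beside the same 8.83%. This was Ticam2, which links TLR4 to the adaptor TRIF. It was at 11.2, 13.6 and 0 CPM among competent libraries and at 139, 55.7 and 121 CPM in the deficient ones. Its log2 fold change was 3.66 ± 1.34 (SE, edgeR FDR 0.376). Ticam1, which encodes TRIF itself, had 24, 0 and 0 counts against 0, 77 and 82, and Tirap had a log2 fold change of -0.89 ± 1.91 (SE).

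Folding, transport and processing genes of the endosomal receptors held 5 of 15 tested genes at an unadjusted p under 0.05, all higher in the deficient group, as were 5% of all genes tested. The cathepsins Ctsb and Ctss, which can cleave endosomal receptors, were at 1508 ± 527 and 1914 ± 880.5 CPM in the competent group and at 3325 ± 868 and 4367 ± 720.5 CPM in the deficient group (SD, n = 3 each). Their edgeR adjusted p was 0.311 and 0.327. Pld4, an endosomal exonuclease that degrades nucleic acid ligands, was at 114 ± 51.9 and 298 ± 111 CPM (SD, n = 3 each). The other genes were Lgmn, an endosomal protease, and Slc15a4, a lysosomal transporter required for TLR7 signaling. Slc15a4 was at 75.2, 44.2 and 118 CPM against 165, 178 and 204 CPM, without overlap (edgeR FDR 0.431). Hsp90b1, the chaperone of most Toll-like receptors, had a log2 fold change of 0.33 ± 0.32 (SE).

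Of 15 tested kinases and ubiquitin ligases, 1 reached an unadjusted p under 0.05 (8.83% of all genes did). This was Map3k8, which encodes the kinase TPL2 and had 112, 0 and 0 counts against 1106, 556 and 467 (edgeR FDR 0.464). Tab2, an adaptor of the kinase TAK1, was the only non-overlapping gene of the 59 on the lower side, at 118 ± 8.24 and 66.6 ± 12.4 CPM (SD, n = 3 each, edgeR FDR 0.825). Tbk1 had 26, 0 and 0 counts against 49, 312 and 131. Of 5 transcription factors, Irf7, which acts below TLR7, was at 154, 277 and 74.4 CPM against 481, 430 and 464 CPM (edgeR FDR 0.301). Irf5 and Nfkb1 had log2 fold changes of 0.58 ± 0.43 and 0.67 ± 1.27 (SE). Of 6 inhibitors, Dusp1 and Tnfaip3 reached an unadjusted p under 0.05 on the higher side (5% of all genes did), with log2 fold changes of 0.76 ± 0.31 and 2.15 ± 0.92 (SE), and Nfkbia had 0.33 ± 0.29. Of 8 tested target genes, Nfkbiz and Cxcl2 did, beside the same 5%, with log2 fold changes of 1.34 ± 0.42 and 0.89 ± 0.35 (SE). Cxcl10 had 2.24 ± 1.61. Of the 8 target genes, 6 had a fitted value above 0 and 2 below, the latter being Tnf at -0.46 ± 0.59 and Il1b at -0.11 ± 0.45.

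Cells were gated as positive for CD45, CD11b and F4/80, as negative for NK1.1 and Ly6G and as negative or dim for Ly6C, a gate that leaves out cells high in Ly6C. The genes of CD11b and F4/80 differed in the same direction as Cd14 and Unc93b1. Adgre1, which encodes F4/80, was at 214 ± 110 and 460.0 ± 42.1 CPM, and Itgam, which encodes CD11b, at 472 ± 150 and 1052 ± 140.2 CPM (SD, n = 3 each). Of the 9 macrophage genes, 3 did not overlap and were higher in the deficient group (11% of all genes were), and the list's median log2 fold change was 0.47. The summed level of 10 resident-type macrophage genes was 511 to 1013 CPM among competent libraries and 2394 to 2825 CPM in the deficient ones, with 9 of 9 tested genes higher without overlap, against the same 11%. That of 5 monocyte genes was 227 to 500.1 CPM and 1452 to 2353 CPM, with 3 of 4 tested genes higher without overlap, again beside 11% of all genes. The part of these cell states in the values of Cd14, Tlr7, Tlr13 and Unc93b1 was not tested. All marker lists were chosen with earlier results of these data known, so that their counts are a description and no test.

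Marker lists of other leukocytes ranged in summed level from 0 to 724 CPM, the neutrophil list being the highest. Siglech, which marks plasmacytoid dendritic cells, had 0 counts in 5 libraries and 121 in deficient replicate 3. Tlr7 was at 50.9, 53.6 and 47.8 CPM in deficient replicates 1, 2 and 3, and the part of such cells in its level was not tested. Ccr9 had 75 counts in deficient replicate 1 and 0 elsewhere, Spib had 0 in all libraries, and the list of 4 such genes summed to 86.5 to 238 CPM among competent libraries and 66.2 to 130.3 CPM in the deficient ones. Tcf4 made up all of it in the 4 libraries without Siglech or Ccr9. Cd79a and Ms4a1 of B cells, Xcr1, Zbtb46 and Ccr7 of dendritic cells, and Cd3e and Ncr1 of T and NK cells had 0 counts in every library. Cd79b of B cells reached at most 26.8 CPM, and the lists of dendritic cells and of T and NK cells summed to at most 14.5 and 8.45 CPM. Ly6g of neutrophils had 0 counts, while the 9 neutrophil genes summed to 620.4 to 724 CPM among competent libraries and 452 to 532 CPM in the deficient ones. Of its 6 tested genes, S100a8 and S100a9 were lower in every deficient library (8.01% of all genes were) and Retnlg was higher (11% were). Of 13 genes of tumor and stromal cells, the melanocyte genes Mlana, Pmel, Dct, Tyr, Tyrp1 and Sox10 had 0 counts. Of 7 tested genes, 6 were lower without overlap (8.01% of all genes were), and Mitf was higher. This list too was chosen with earlier results of these data known, so that the count is a description and no test. The list summed to 433, 1039 and 1699 CPM in competent replicates 1, 2 and 3 and to 74.7 to 128 CPM in the deficient ones. Tlr13 was also lower in the deficient group, and it was at 118, 177 and 92.7 CPM in competent replicates 1, 2 and 3. The part of tumor and stromal cells in the value of Tlr13 was not tested.

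**Figure D4:**
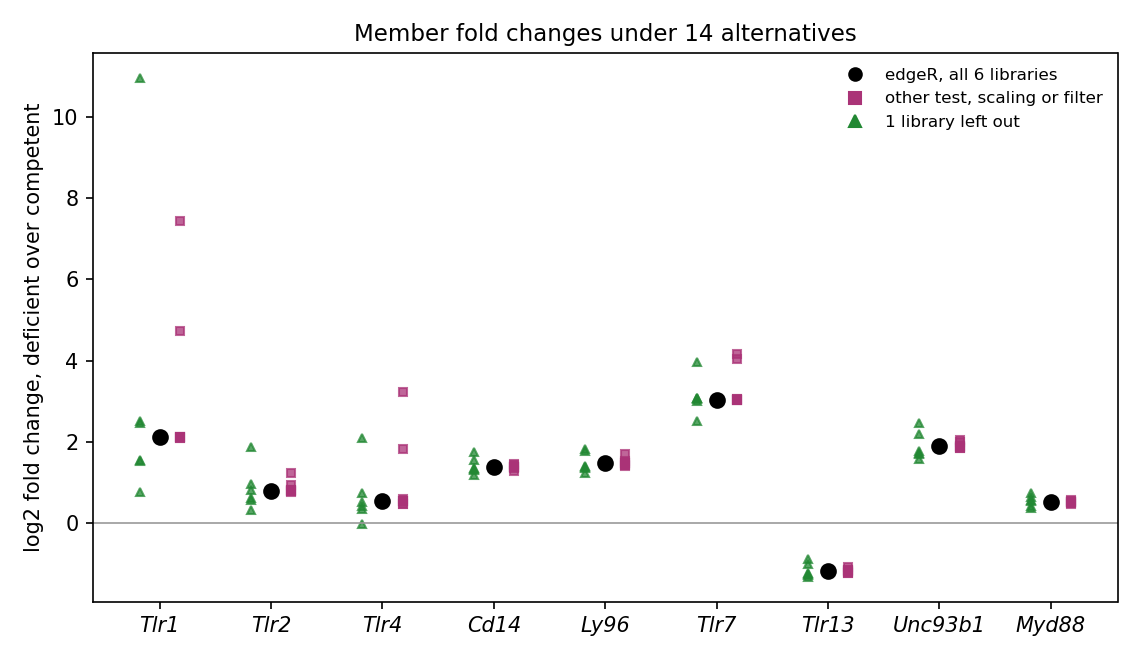
Log2 fold change of the 9 tested genes (vertical axis) in the reported fit (black circles), under 8 other tests, scalings, filters or a replicate block (squares) and in 6 fits that each left out a library (triangles). Cd14, Ly96, Unc93b1, Myd88 and Tlr13 hold a narrow range, Tlr7 stays above 2.5, and Tlr1 and Tlr4 range most, with Tlr4 at -0.027 in 1 fit.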

How the data were processed

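The authors deposited raw read counts per gene, 1 column per library. They made 3′-end libraries (QuantSeq FWD), removed the first bases and contaminants with BBDUK and tails with fqtrim and cutadapt, aligned with STAR to GRCm38 and assigned reads with featureCounts to an Ensembl annotation. Strand setting and multi-mapped reads are not given in the sources used here. Without molecular identifiers, PCR copies were not separated, so that floors cover counting error only.

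Genes passing filterByExpr (a count of 10, a total of 15) were fitted in edgeR 4.0.16 (R 4.3.3) with TMM scaling and tested (glmQLFTest, two-sided), and p was adjusted by Benjamini-Hochberg across the 8793 genes. The standard error is the absolute log2 fold change over the square root of F. DESeq2 1.42.0 and limma 3.58.1 served as alternatives. Adgre1 and Chil3 were found by Ensembl identifier under older symbols. Positions come from GENCODE M21 (GRCm38). Scripts were tested on simulated data. The members and lists were chosen with earlier results of these data known. Named were all members, all other Toll-like receptors and, per pathway list, the 3 genes with the smallest p. Hsp90b1, Lgmn, Slc15a4, Tnf and Il1b were named after their values were seen.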

Additional observations from a re-analysis of the deposited data

How the results depend on the processing

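The counts of calls, the count of members with an unadjusted p under 0.05, the medians of both receptor classes and the fold changes of the 9 tested members were recomputed under 14 alternatives, 8 of which kept all 6 libraries. Overlap counts, receptor sums and shares, marker lists and X-linked medians were not. The 19 calls over all genes became 241 under the edgeR likelihood ratio test, 328 under DESeq2, 123 under limma voom with quality weights and 252 without a filter on low counts. They were 0 to 25 when 1 library was left out (0 without Ptgs-competent replicate 1, where 1231 genes had an unadjusted p under 0.05 by edgeR). DESeq2, limma voom and no filter each called 1 gene of the set (Unc93b1). Without a filter, 3 pathway genes were called (Cd180, Map3k8 and Ticam2). Limma voom put the median log2 fold change of the cell-surface receptors at 3.22, where the median of all genes was 0.39. The cause of these shifts was not tested. DESeq2 gave Tlr1 no adjusted p. Tlr4 changed sign in 1 alternative, at -0.027 without Ptgs-competent replicate 2, its log2 fold change ranging from -0.027 to 2.09 when 1 library was left out, and the other 8 tested genes kept their direction in all 14.

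Titles give both groups the same replicate numbers, but libraries sharing a number did not deviate together (correlations across genes of -0.049, -0.022 and -0.022). With the number as a replicate block, edgeR called 77 genes, 0 of the set and 1 of the pathway lists (Map3k8). Tlr8 and Tlr9 had 0 counts in all 6 libraries, which by counting error alone allows up to 3 counts in each at these depths. Tlr4 had 0 counts in a library of 6128346 counts and 431 in the shallowest, of 4431184, whereas the 0 of Tlr7 lay in that shallowest library.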
